A study of Mus musculus with 2 samples.

Results

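Telencephalic-type astrocytes are described here in single-cell RNA sequencing of sorted cells from the adult mouse brain. Barcodes entered with 500 or more genes detected and no more than 10% of their unique molecular identifiers (UMIs, the tags that count molecules) from mitochondrial genes. A chosen cell then needed at least 2 UMIs of each of 4 or more of the 8 astrocyte genes Slc1a2, Slc1a3, Aqp4, Gja1, Slc4a4, Gpc5, Atp1b2 and Ntsr2. Its Gria4 level had to be below 3000 counts per 1000000 UMIs (CPM) of the cell. Its UMIs of Mfge8 and Lhx2 together had to exceed those of Agt and Slc6a11 together. The rule chose 250 cells among 12036 that passed the gene and mitochondrial limits, 82 of 6294 in the mutant library and 168 of 5742 in the control library.

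The mutant library came from adult Mrc1Cre:Csf1rfl/fl mice, in which Cre from the Mrc1 (mannose receptor) locus acts on loxP sites in Csf1r, the receptor of colony-stimulating factor 1 and interleukin-34. The control library came from adult Csf1rfl/fl mice, so both groups carry the floxed receptor gene and differ in the Cre allele. Both libraries start from whole brain and mix separately gated populations, of which astrocytes were taken as ACSA-2+ cells. Beside them stand CD13+ or CD140a+O4- mural cells and fibroblasts, CD31+ endothelial cells, border-associated macrophages and microglia. The labels do not say how many mice were pooled, of which sex, or of what exact age. There was 1 library per genotype, so no test between genotypes was possible. Every interval below is a 95% interval of counting error, and neither the spread between mice nor that between cells is part of it.

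Astrocytes clear glutamate and potassium from the extracellular space, supply neurons with lactate and lipids, and line brain vessels with end-feet rich in aquaporin-4. Astrocytes of the forebrain derive from radial glia that use the transcription factors Lhx2, Emx2 and Pax6, and adult astrocytes keep part of that regional code. In the mouse, Mfge8 (a secreted bridge between phosphatidylserine and integrins) is known as a mark of telencephalic astrocytes, while Agt (angiotensinogen) and Slc6a11 (the GABA transporter GAT3) mark astrocytes of the diencephalon, brainstem and cord.

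In the GENCODE annotation of GRCm38, Mfge8 lies at chr7:79133768-79149060 on the minus strand and Lhx2 at chr2:38339281-38369733 on the plus strand. Agt lies at chr8:124556534-124569706 on the minus strand and Slc6a11 at chr6:114131241-114249952 on the plus strand. These 4 genes, the 8 astrocyte genes and Gria4 chose the cells, so their levels are given as a description of the choice.

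The matrices held 8735 mutant and 8739 control barcodes, with 82806348 UMIs in the mutant and 85716531 in the control library. The chosen cells held 1177175 UMIs in the mutant and 2140495 in the control library, at a median of 13014 and 10849 UMIs per cell in mutant and control. Of all barcodes, 17 had the same sequence in both libraries, and 0 of the chosen cells were among them. Scrublet marked 9 mutant and 8 control chosen cells as doublets, and these were kept.

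The chosen cells were 1.30% (1.04 to 1.61) of kept barcodes in the mutant and 2.93% (2.51 to 3.40) in the control library. Among cells that met the 8-gene criterion they were 20.9% (17.0 to 25.2) of 393 in the mutant and 20.2% (17.6 to 23.1) of 830 in the control library. Among cells with 7 or 8 of the astrocyte genes alone they were 14.4% (9.90 to 19.9) of 209 in the mutant and 21.7% (18.5 to 25.1) of 623 in the control library. The share among cells past the 8-gene criterion thus differed by less than its counting error, that among cells with 7 or 8 genes was lower in the mutant library with intervals that overlapped, and the share of all kept barcodes was lower in the mutant library. The mix of gates loaded can set the share of all kept barcodes. Of the other cells that met the criterion, 218 mutant and 577 control cells had more Agt and Slc6a11 than Mfge8 and Lhx2 and are called non-telencephalic. A further 27 mutant and 33 control cells were above the Gria4 limit, and 66 mutant and 52 control cells had equal sums, of which 58 mutant and 30 control cells had 0 on both sides.

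The number of astrocyte genes per chosen cell differed between the libraries. In the mutant library 29, 15, 8, 6 and 24 cells had 4, 5, 6, 7 and 8 of the 8 genes. In the control library these counts were 19, 8, 6, 11 and 124 cells. Cells with 7 or 8 genes were 36.6% (26.2 to 48.0) of the chosen cells in the mutant and 80.4% (73.5 to 86.1) in the control library. The choice of Mfge8 over Agt also rested on different evidence at the low and the high end of this scale. The median sum of Mfge8 and Lhx2 UMIs was 1, 2, 2.5, 9 and 14.5 in mutant cells with 4, 5, 6, 7 and 8 genes. It was 2, 1.5, 2.5, 10 and 16.5 in the control cells.

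**Figure D1:**
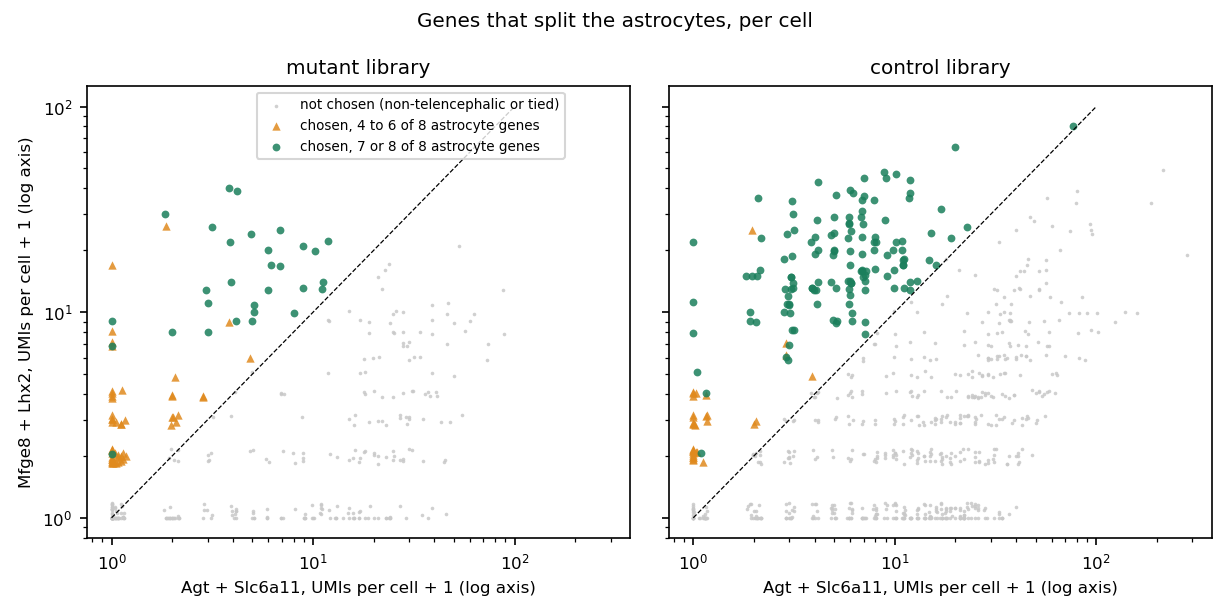
Each point is a cell that met the 8-gene criterion with Gria4 under its limit, plotted by its UMIs of Agt plus Slc6a11 (x axis) and of Mfge8 plus Lhx2 (y axis), both plus 1 with a small jitter on log axes, in the mutant (left) and control (right) library. The dashed line marks equal sums, and most chosen cells with 4 to 6 astrocyte genes (triangles) sit near the origin, 31 mutant and 21 control chosen cells being above the line by 1 UMI.

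The cells with 4 to 6 astrocyte genes often carried genes of other classes. Slc1a2, 1 of the 8 genes by which the cells were divided, stood at 631 CPM, taken over the summed UMIs of the cells, in the mutant and 876 CPM in the control cells, against 8718 and 8583 CPM in mutant and control cells with 7 or 8 genes. In these 52 mutant and 33 control cells, 28 mutant (53.8%) and 10 control (30.3%) cells also met the marker criterion of ependymal cells, the ciliated lining of the ventricles. The criterion of choroid plexus epithelium, which makes cerebrospinal fluid, was met by 18 mutant and 7 control cells, and that of fibroblasts by 11 mutant and 6 control cells. Any class but microglia was met by 41 mutant (78.8%) and 19 control (57.6%) cells. The 10 ependymal markers together stood at 5960 CPM in the mutant and 3543 CPM in the control cells, with none of them at 0. Mfge8 stood at 106 CPM in the mutant and 83.7 CPM in the control cells, against 18.6 and 19.1 CPM in microglia of the mutant and control library.

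In the 30 mutant and 135 control cells with 7 or 8 astrocyte genes, 4 mutant and 8 control cells met any other class's criterion, leaving microglia aside. Mfge8 stood at 1529 CPM (1386 to 1682) in the mutant and 1461 CPM (1401 to 1523) in the control cells, with a UMI in 30 of 30 mutant and 134 of 135 control cells. With every cell thinned to 2000 UMIs, 96.7% of mutant and 92.6% of control cells had an Mfge8 UMI, against 2.91% of mutant and 3.45% of control microglia. Lhx2, a LIM-homeodomain factor of the developing cortex, stood at 167 CPM (122 to 223) in the mutant and 222 CPM (199 to 247) in the control cells, and at 0.44 and 0.51 CPM in mutant and control microglia. Mfge8 and Lhx2 were part of the rule, so their levels describe the choice and do not bear on the name. Below, the name telencephalic-type astrocyte is used for the cells with 7 or 8 genes, few of which met another class's criterion with microglia left aside. The microglial criterion was met by 6 of these 30 mutant and 30 of these 135 control cells. The remaining chosen cells are called by their gene number. This division was made after the values were seen.

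**Figure D2:**
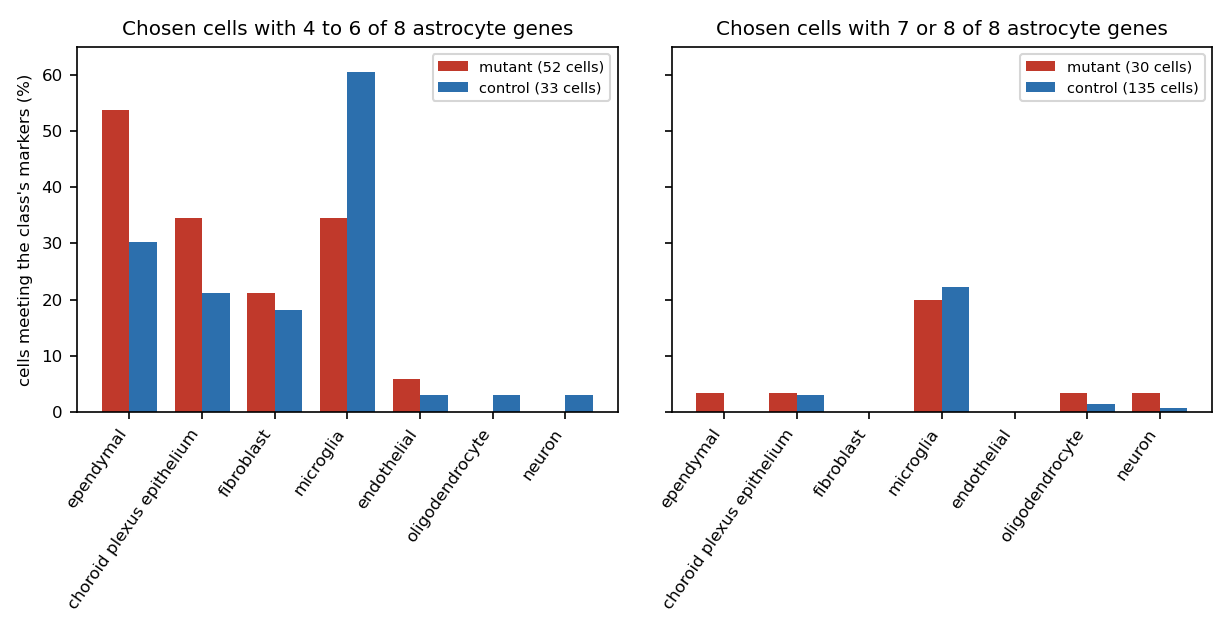
Share of chosen cells (y axis, %) that also met the marker criterion of 7 other classes, in cells with 4 to 6 (left) and 7 or 8 (right) of the 8 astrocyte genes, for the mutant (red) and control (blue) library. The ependymal criterion was met by 53.8% of mutant and 30.3% of control cells with 4 to 6 genes and by 3.33% of mutant and 0% of control cells with 7 or 8.

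At the edge of the rule, 31 mutant and 21 control cells were inside by a margin of 1 UMI of Mfge8 and Lhx2 over Agt and Slc6a11, and 1 mutant and 5 control cells of these had 7 or 8 astrocyte genes. Just outside, 66 mutant and 52 control cells were tied. A margin of 10 UMIs or more was reached by 17 mutant and 70 control cells. The Gria4 limit left out 19 mutant and 12 control cells that met the rest of the rule. Few cells lay near this limit, with 2 mutant and 3 control cells between 3000 and 4000 CPM just outside. Between 2000 and 3000 CPM, 0 mutant and 4 control cells were inside. The highest level inside was 800.2 CPM of the cell in the mutant and 2934 in the control library. Beyond the mitochondrial limit, 16 mutant and 82 control barcodes with over 10% and up to 20% mitochondrial UMIs met the rest of the rule. Of these, 8 mutant and 65 control barcodes had 7 or 8 astrocyte genes.

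The 30 mutant and 135 control cells with 7 or 8 genes had similar levels of Slc1a2, Slc1a3, Aqp4 and Gja1 in both libraries. These genes chose the cells, so their similarity describes the choice. Gjb6, a gap junction gene outside the rule, was lower in the mutant cells by more than counting error, as given below. Slc1a2 (GLT-1, the main glutamate transporter of the adult forebrain) stood at 8718 CPM (8372 to 9073) in the mutant and 8583 CPM (8437 to 8732) in the control cells. Per cell it ran from 1541 through a median of 8964 to 16270.7 CPM in the mutant and from 1301 through 8668 to 17830.4 CPM in the control cells, so the 2 libraries overlapped over nearly their whole range. Slc1a3 (GLAST, the other astrocytic glutamate transporter) stood at 3358 CPM in the mutant and 3289 CPM in the control cells. Both genes were among those that chose the cells.

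Glul (glutamine synthetase), which no part of the rule used, stood at 1906 CPM (1747 to 2076) in the mutant and 2426 CPM (2348 to 2505) in the control cells, a mutant to control ratio of 0.786 (0.716 to 0.861). Aldoc, the astrocytic aldolase, stood at 1899 CPM in the mutant and 2720 CPM in the control cells, a ratio of 0.698 (0.636 to 0.765). Both ratios were below 1 by more than counting error but short of the 1.5-fold size that was set as the limit for a call. In the 20 mutant and 101 control cells of these that met no other class's criterion, Aldoc was called lower and Glul was not called.

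For contacts with vessels and neighbouring astrocytes, Aqp4 (the end-foot water channel) stood at 810 CPM (707 to 923) in the mutant and 812 CPM (768 to 859) in the control cells. Gja1 (connexin 43) stood at 1801 CPM in the mutant and 1785 CPM in the control cells, a ratio of 1.01 (0.915 to 1.11). Gjb6 (connexin 30) stood at 312 CPM in the mutant and 438 CPM in the control cells, a ratio of 0.714 (0.563 to 0.894). Kcnj10 (the potassium channel Kir4.1) stood at 189 CPM in the mutant and 283 CPM in the control cells, a ratio of 0.668 (0.491 to 0.892). Of these 4 genes, none passed the size limit.

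Slc4a4 (the sodium bicarbonate cotransporter) stood at 2244 CPM in the mutant and 2072 CPM in the control cells. Ntsr2, a neurotensin receptor gene of astrocytes, stood at 948 CPM in the mutant and 817 CPM in the control cells. Gfap, the intermediate filament of fibrous and reactive astrocytes, was low, with 21.8 CPM (6 UMIs) in the mutant and 28.7 CPM (44 UMIs) in the control cells. Slc4a4 and Ntsr2, like Slc1a2, Slc1a3, Aqp4 and Gja1 above, were among the genes that chose the cells, so their presence describes the choice. Gfap was not part of the rule.

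Among the genes that held most UMIs of these cells were Cst3 (cystatin C), Apoe (apolipoprotein E), Lsamp, Slc1a2, Ttr, Ppp6r3, Gpc5, Trpm3 and Mt1, as 3′ tag counts that are not set against each other by length. Apoe stood at 15398 CPM in the mutant and 14052 CPM in the control cells, and Cst3 at 15638 CPM in the mutant and 14903 CPM in the control cells. Ttr (transthyretin), the leading transcript of choroid plexus epithelium, stood at 5515 CPM in the mutant and 10566 CPM in the control cells. A single cell held 63.7% of its UMIs in the mutant and 43.7% in the control library. The median cell had 2258 CPM of Ttr in the mutant and 1869 CPM in the control library, and Ttr was found in all 30 and all 135 cells. In microglia, which do not make transthyretin, Ttr stood at 10163 CPM in the mutant and 6650 CPM in the control library.

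The regional code was read by setting the telencephalic-type cells against the non-telencephalic cells of the same library, both with 7 or 8 astrocyte genes (156 non-telencephalic cells in the mutant and 453 in the control library). Since the rule divides these cells by 4 genes, the contrast is a description and no count from it is read as a result. Of 5475 genes with enough UMIs, 374 (6.83%) were at least 1.5-fold higher and 398 (7.27%) at least 1.5-fold lower in telencephalic-type cells in both libraries, with intervals that excluded 1. Over all chosen cells these counts were 646 (8.01%) and 505 (6.26%) of 8065 genes, and with TMM (trimmed mean) scaling, which moved the log2 ratios by 0.17 in the mutant library, 380 and 683. The leading higher genes there, such as Ptgds, Tagln and Acta2, are known from meningeal and mural cells.

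Among transcription factors, Pax6, known from cortical radial glia and adult astrocytes, had ratios of 2.46 (1.59 to 3.73) in the mutant and 2.04 (1.67 to 2.49) in the control library. Hopx, a small homeodomain protein known from outer radial glia and dentate stem cells, stood at 352 CPM against 58.8 CPM in telencephalic-type and non-telencephalic cells of the mutant library. In the control library it stood at 408 CPM against 66.5 CPM in the same order. Id4, an inhibitor of basic helix-loop-helix factors, had ratios of 3.39 in the mutant and 4.40 in the control library, and Hes5, a Notch target, of 2.11 in the mutant and 3.27 in the control library. Sox9, a general astrocyte factor, had ratios of 1.52 (1.25 to 1.84) in the mutant and 2.02 (1.85 to 2.20) in the control library.

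Of 4 measured factors of the diencephalon to hindbrain, 0 were higher and 3 (Irx5, Otx2 and Pax3) lower in telencephalic-type cells. Otx2 is also among the choroid plexus epithelium markers used here. In the cells that met no other class's criterion, 2 (Irx5 and Pax3) of 3 measured were lower, 0 were higher and Otx2 was not called. Irx5 had 1 UMI in 30 mutant and 6 UMIs in 135 control telencephalic-type cells, against 51.6 and 44.1 CPM in mutant and control non-telencephalic cells. Pax3 had 0 UMIs in mutant telencephalic-type cells and 13 in control ones, against 107 and 86.4 CPM in mutant and control non-telencephalic cells. Of the 10 measured telencephalic patterning factors, 6 were higher in telencephalic-type cells in both libraries and 0 lower, and in the cells that met no other class's criterion 3 (Pax6, Id4 and Hopx) of 8 were higher. The 28 listed factors of the diencephalon to hindbrain together stood at 338 CPM in telencephalic-type and 576 CPM in non-telencephalic cells of the mutant library, and at 423 and 506 CPM in those of the control library, so the list as a whole was not near 0.

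Beyond transcription factors, the genes farthest above 1 by their interval were Nrg1, Lhx2, Car8, Chst2, Hapln1, Lypd6, Hopx, Mfge8, Cspg5 and Gnao1. Hapln1, a link protein of the hyaluronan matrix, stood at 229 CPM in telencephalic-type and 27.8 CPM in non-telencephalic cells of the mutant library, and at 195 and 33.5 CPM in those of the control library. Chst2, a sulfotransferase that acts on matrix glycans, had ratios of 6.89 (4.94 to 9.64) in the mutant and 5.88 (5.09 to 6.80) in the control library. Cspg5 (neuroglycan C, a membrane proteoglycan) stood at 1343 CPM in telencephalic-type and 286 CPM in non-telencephalic cells of the mutant library, and at 1376 and 318 CPM in those of the control library. Nrg1 (neuregulin 1, a ligand of ErbB receptors) was uneven between cells, with 38.9% of its UMIs in 1 mutant and 55.4% in 1 control cell.

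The genes farthest below 1 were Nalf1, Car10, Tafa1, Erbb4, Agt, Stk32a, Pax3, Adcy8, Kcnd2 and Prr16. Erbb4, a receptor of neuregulins, stood at 229 CPM in telencephalic-type and 2094 CPM in non-telencephalic cells of the mutant library, and at 138 and 2122 CPM in those of the control library. Kcnd2 (the A-type potassium channel Kv4.2) had ratios of 0.0807 (0.0635 to 0.101) in the mutant and 0.164 (0.152 to 0.176) in the control library. Slc6a9 (the glycine transporter GLYT1) had 58.1 CPM in telencephalic-type cells of each library, against 367 and 305 CPM in mutant and control non-telencephalic cells. Kcnj10 and Aqp4 were also lower in telencephalic-type cells, with Aqp4 at ratios of 0.530 (0.460 to 0.608) in the mutant and 0.629 (0.592 to 0.668) in the control library.

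Functional groups are given as counts beside the 6.83% of all measured genes that were higher and the 7.27% that were lower. Of 15 measured lipoprotein and lipid-binding genes, 7 were higher in telencephalic-type cells in both libraries, among them Clu (clusterin), Mt1 and Mt3 (metallothioneins) and Fabp5, and 1 (Lrp1) was lower. Clu had ratios of 2.99 in the mutant and 2.35 in the control library. Of 22 measured genes of cholesterol and fatty acid synthesis, 4 (Hmgcs1, Fdft1, Fdps and Msmo1) were higher and 0 lower. In the cells that met no other class's criterion, only Msmo1 of these 4 was still called, and 4 of 15 lipoprotein and lipid-binding genes were higher and 0 lower, with Fabp5 and Lrp1 not called. Of 20 measured neurotransmitter receptors and calcium signalling genes, 4 were higher, with Grm3 (the metabotropic glutamate receptor of adult astrocytes) at ratios of 3.15 in the mutant and 2.54 in the control library. In that list 9 were lower, among them the glutamate receptor genes Gria1, Gria4 and Grm5. Among 10 measured genes of glutamate uptake, Glul was higher and Slc38a1 lower, the second not in the cells that met no other class's criterion, and Slc1a2 and Slc1a3, also higher, were among the genes that chose the cells.

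**Figure D3:**
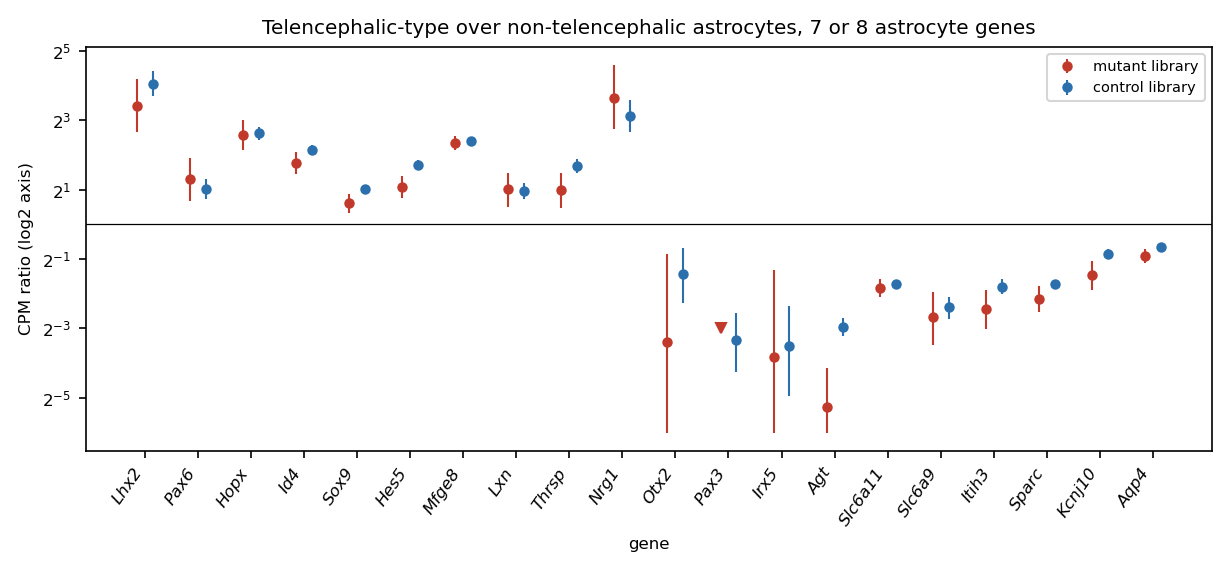
CPM in telencephalic-type over non-telencephalic astrocytes with 7 or 8 astrocyte genes (y axis, log2), for regional genes on the x axis, in the mutant (red) and control (blue) library. Bars are 95% counting intervals, drawn no lower than 1/64, and the triangle marks the upper bound for Pax3, with 0 UMIs in the mutant cells. Pax6 was 2.46-fold higher in the mutant and 2.04-fold in the control library, and Irx5 and Pax3 were lower in both.

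Against Gria4-high astroglia with 7 or 8 astrocyte genes (18 mutant and 25 control cells), 180 (10.9%) of 1646 genes were higher and 224 (13.6%) lower in telencephalic-type cells in both libraries, again as a description. Over all chosen cells 528 (10.3%) were higher and 453 (8.83%) lower of 5130 genes. Hes5 stood at 443 CPM in telencephalic-type cells, against 0 UMIs in Gria4-high cells, in the mutant library. In the control library it stood at 466 CPM against 29.0 CPM in the same order. Fzd2 (a Wnt receptor) and Hapln1 likewise had 0 UMIs in the mutant Gria4-high cells. On the other side, Mybpc1 had 0 and 6 UMIs in mutant and control telencephalic-type cells, against 672 and 412 CPM in mutant and control Gria4-high cells. Mfge8 had ratios of 3.66 in the mutant and 3.66 in the control library.

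Cells of the same library varied among themselves more in a few abundant genes than in most others. Across cells thinned to 2000 UMIs, the median variance to mean ratio over genes was 1.25 in mutant and 1.05 in control cells with 7 or 8 genes, where 1 is the value for equal cells. The ratio was 143.7 in the mutant and 243 in the control cells for Ttr. It was 15.9 in the mutant and 13.8 in the control cells for Cst3, and 11.2 in the mutant and 10.1 in the control cells for Apoe. Apoe per cell ran from 3052 through a median of 14095 to 40452 CPM in the mutant and from 351 through 13063 to 40851 CPM in the control cells. Ptgds, Mal and Mag had high ratios from single cells, with 99.4% of Mal UMIs in 1 mutant cell and 52.9% in 1 control cell. In the stricter set of 20 mutant and 101 control cells that met no other class's criterion, Cst3, Apoe, Lsamp and Mt1 led.

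Hopx was patchy from cell to cell. It had a UMI in 18 of 30 mutant and 111 of 135 control cells with 7 or 8 genes and ran from 0 through a median of 119 to 2044 CPM in the mutant and from 0 through 286 to 3580 CPM in the control cells. Agt, which the rule held low, had UMIs in 6 of 30 mutant and 52 of 135 control cells.

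The comparison of the mutant with the control library asks which astrocyte genes differ where Csf1r is deleted through Mrc1-Cre. Taken over all 82 mutant and 168 control chosen cells, 1446 of 8319 measured genes (17.4%) were higher and 1034 (12.4%) lower in the mutant library by the size rule. That rule asked for at least 50 UMIs over both libraries and a ratio of at least 1.5, or at most its inverse, with an interval that excluded 1. With TMM scaling, which shifted all log2 ratios by 0.10, these counts were 1223 higher and 1317 lower, so 48.1% rather than 58.3% of the calls were higher. The groups compared were of unlike make-up, with 52 of the mutant and 33 of the control cells having 4 to 6 astrocyte genes. The part of this make-up in the counts was not tested.

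The gene lists were counted over the same cells. Over all chosen cells, 13 of 13 measured intermediate filament and reactive genes were higher in the mutant library, with a median log2 ratio of 1.86 beside 0.03 over all measured genes. Vim (vimentin), also a gene of ependymal cells and fibroblasts, had a ratio of 3.94 (3.44 to 4.53). Of 22 measured genes of cholesterol and fatty acid synthesis, 16 were lower and 0 higher, at a median of -0.93. Of 17 measured gap junction and adhesion genes, 14 were lower and 1 higher, and of 21 neurotransmitter receptor and calcium signalling genes, 17 were lower and 0 higher. Beside these stand the ependymal markers, which met their criterion in 29 of 82 mutant (35.4%) and 10 of 168 control (5.95%) chosen cells. The named genes with the highest ratios were Rbp4, Cemip, Col25a1, Klf5, Ccdc3, Ccn3, Adamts20, Ifitm3, Lrrc36 and Cfap299. Cfap299, a gene of cilia, stood at 476 CPM in the mutant and 64.0 CPM in the control cells, and at 25.4 and 1.31 CPM in mutant and control cells with 7 or 8 genes. The lowest were led by Omp (olfactory marker protein), Cntn4, Prl and Fstl5. All 278 Omp UMIs, all 215 Cntn4 UMIs and all 288 Fstl5 UMIs of the control library came from 1 cell each, with 4 to 6 astrocyte genes.

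Within the 30 mutant and 135 control cells with 7 or 8 genes, 209 of 5428 measured genes (3.85%) were higher and 195 (3.59%) lower in the mutant library. With TMM scaling, 146 were higher and 269 lower, so 35.2% rather than 51.7% of the calls were higher. Genes under 10% of their CPM in another class, such as Ttr, were counted apart, and of 190 such genes 20 (10.5%) were higher and 24 (12.6%) lower. The 4 lists given above over all chosen cells had fewer calls here. Of intermediate filament and reactive genes 2 were left to measure and of interferon response genes 1, so a difference in these lists could not be seen. Of 22 cholesterol and fatty acid genes 2 were higher and 0 lower, at a median log2 ratio of 0.11 beside -0.02 over all measured genes. Of 16 gap junction and adhesion genes, 11 GABA and glycine transport genes, 11 glutamate uptake genes and 27 genes of Notch, BMP, FGF and Hedgehog signalling, 0 were higher and 0 lower. Of 25 genes of glycolysis, lactate and glycogen 0 were higher and 2 (Ldha and Gbe1) lower, and of 18 end-foot genes 1 (Dmd) was higher and 1 (Dtnb) lower.

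**Figure D4:**
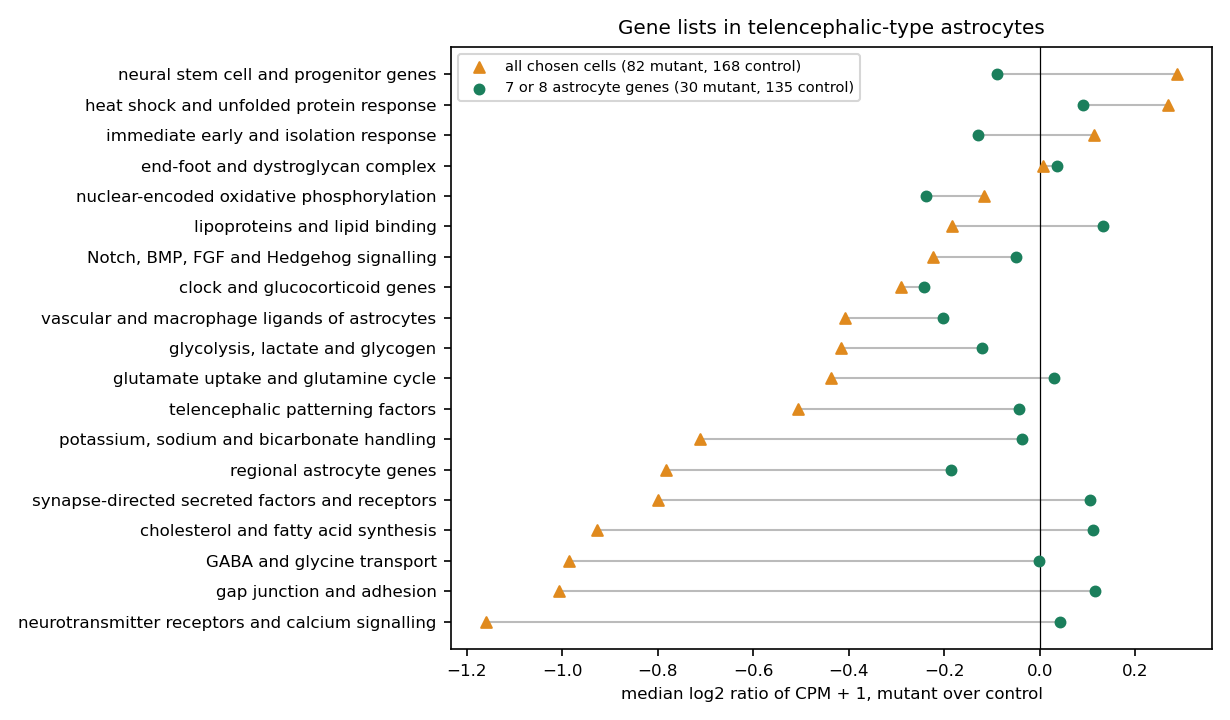
Median log2 ratio of CPM plus 1, mutant over control (x axis), over the measured members of 19 gene lists with at least 5 measured members (rows), for all chosen cells (triangles) and for cells with 7 or 8 astrocyte genes (circles). In cells with 7 or 8 genes all 19 medians lie between -0.24 and 0.13, while 8 of the 19 lie beyond 0.5 from 0 over all chosen cells, the lowest at -1.16.

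Glutamate receptors made up the lower calls of the receptor list in cells with 7 or 8 genes, 3 of 19 measured, beside 3.59% over all measured genes. Gria4, 1 of these 3, was capped by the rule, so the count is not read as an excess. Gria1 (the AMPA receptor subunit GluA1) stood at 32.7 CPM (14.9 to 62.0) in the mutant and 142 CPM (123 to 162) in the control cells, a ratio of 0.231 (0.104 to 0.446). UMIs of it came from 5 of 30 mutant and 41 of 135 control cells. Without the cell richest in it in each library its ratio was 0.140. Grm5 (the metabotropic receptor mGluR5) stood at 21.8 CPM in the mutant and 96.0 CPM in the control cells, a ratio of 0.227 (0.0819 to 0.506), but of 0.860 with a mitochondrial limit of 5%. Gria4 stood at 10.9 CPM in the mutant and 92.7 CPM in the control cells, and the rule capped it. Of all chosen cells, 0 mutant and 4 control cells lay from 2000 to under 3000 CPM of the cell. Their part in the Gria4 difference was not tested. All 3 are genes that were lower in telencephalic-type than in non-telencephalic cells, at ratios of 0.0372 and 0.218 for Gria1 in the mutant and control library. Gria2, the most general AMPA subunit, stood at 1318 CPM in the mutant and 1274 CPM in the control cells, a ratio of 1.03 (0.923 to 1.16).

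Agt was another lower call, with 21.8 CPM (7.99 to 47.4) in the mutant and 84.3 CPM (70.3 to 100.1) in the control cells, a ratio of 0.259 (0.0932 to 0.578). Agt also stood lower in cells that should lack it, at 2.23 CPM in mutant and 8.22 CPM in control microglia. Slc6a11, the other gene on that side of the rule, stood at 454 CPM in the mutant and 435 CPM in the control cells. In microglia it stood at 2.86 CPM in the mutant and 18.8 CPM in the control library. The part of free RNA in the Agt difference was not tested.

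Among patterning factors, Emx2 stood at 43.6 CPM (22.5 to 76.1) in the mutant and 79.0 CPM (65.6 to 94.4) in the control cells. Its ratio was 0.551 (0.277 to 0.999), and it was the only one of 12 measured in this list past the size rule. In the stricter set Emx2 was not called. The only call among 11 measured there was Hopx, lower in the mutant library, with 38.8% of its mutant UMIs in 1 cell. Lhx2 had a ratio of 0.752 (0.540 to 1.03) and Pax6 of 1.23 (0.821 to 1.79). Fam107a, an actin-binding protein of astrocytes that responds to glucocorticoids, stood at 152 CPM (110 to 206) in the mutant and 332 CPM (304 to 363) in the control cells. Its ratio was 0.459 (0.327 to 0.629), and the highest single cell held 11.9% of its UMIs in the mutant and 2.75% in the control library. Lcat, the enzyme that esterifies lipoprotein cholesterol, stood at 152 CPM in the mutant and 261 CPM in the control cells, a ratio of 0.584 (0.414 to 0.803).

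Other lower genes were Ifnar2 (an interferon receptor chain), Gstk1 (a glutathione transferase) and Fnta (a prenyltransferase subunit). Ifnar2 stood at 18.2 CPM in the mutant and 75.1 CPM in the control cells, and Gstk1 at 14.5 CPM in the mutant and 65.3 CPM in the control cells. In mutant cells these rest on 5 and 4 UMIs for Ifnar2 and Gstk1. Of 30 nuclear-encoded oxidative phosphorylation genes, 3 (Sdha, Atp5g1 and Atp5k) were lower and 0 higher, beside 3.59% lower and 3.85% higher over all measured genes.

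Most of the leading higher genes came from single cells. By the interval bound the 10 leading genes were Plac9, Grb14, Mal, Rarres2, Opalin, Tspan2, Pdlim2, Cnp, Nudt4 and Mog. Plac9, Mal, Opalin, Tspan2 and Mog had 99.3% or more of their mutant UMIs in 1 cell, and Mal, Opalin and Mog are genes of myelinating oligodendrocytes. The 10 oligodendrocyte markers stood at 5744 CPM in the mutant and 2051 CPM in the control cells, with 96.6% of them in 1 mutant cell and 60.6% in 1 control cell. The median cell had 128 CPM of these markers in the mutant and 224 CPM in the control library. Higher genes spread over more cells included Srebf2, a regulator of cholesterol synthesis, at 185 CPM (138 to 243) in the mutant and 117 CPM (100.4 to 135) in the control cells. It had UMIs in 22 of 30 mutant and 103 of 135 control cells. Its ratio was 1.58 (1.14 to 2.17). Csmd1, a large membrane protein known to regulate complement, stood at 323 CPM in the mutant and 137 CPM in the control cells, a ratio of 2.37 (1.83 to 3.05), with 28.1% of its UMIs in 1 mutant cell.

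**Figure D5:**
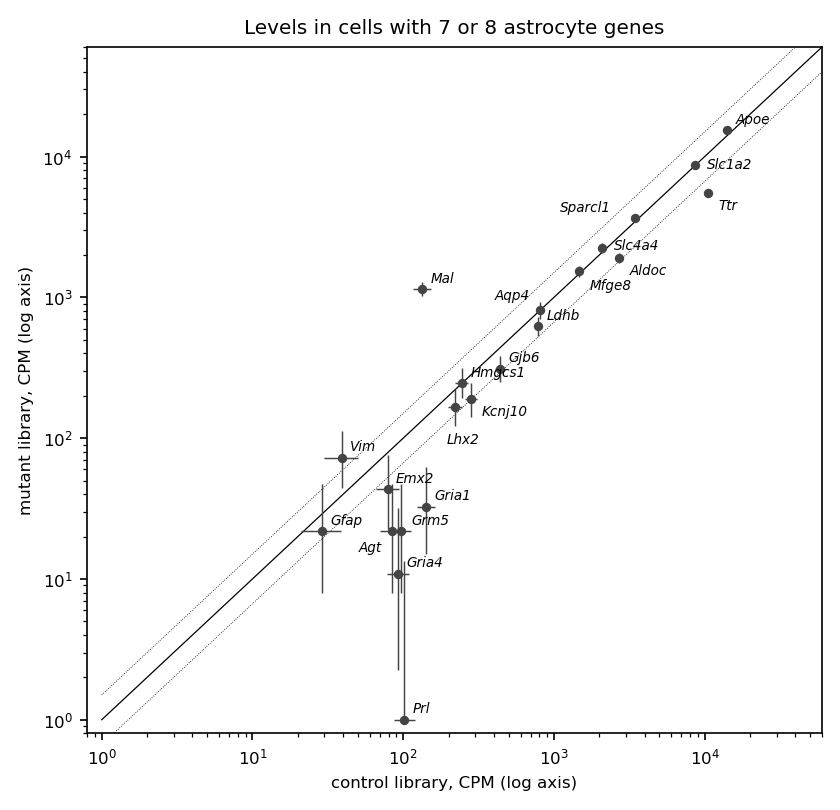
CPM in the mutant (y axis) and control (x axis) library for 22 genes in cells with 7 or 8 astrocyte genes, on log axes with 95% counting intervals. The solid line marks equal levels and the dotted lines a 1.5-fold difference, values under 1 CPM are drawn at 1, and Slc1a2, Aqp4, Mfge8 and Apoe lie near the line while Gria1, Grm5, Agt and Prl lie below it.

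Prl (prolactin, a pituitary hormone) had 0 UMIs in the 30 mutant cells and 156 UMIs in 83 of 135 control cells. Against a floor of 3 counts over the mutant cells it was at least 9.35-fold lower in the mutant library. It had the same pattern in other classes, with 0 CPM in the mutant and 176 CPM in the control microglia, and 0 CPM in the mutant and 287 CPM in the control endothelial cells. Of the control cells thinned to 2000 UMIs, 17.8% of telencephalic-type cells and 24.8% of microglia had a Prl UMI. Pomc, another pituitary gene, had 98.2% of its control UMIs in 1 cell.

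In the stricter set of 20 mutant and 101 control cells, 199 of 3788 measured genes (5.25%) were higher and 215 (5.68%) lower in the mutant library. Of 84 genes counted apart as under 10% of another class, 4 (4.76%) were higher and 7 (8.33%) lower. The higher genes were long and the lower ones short. The genomic span had a median of 106.9 kb over the higher genes, 13.3 kb over the lower genes and 38.7 kb over all measured genes. A span of 100 kb or more was held by 51.8% of higher, 8.84% of lower and 24.7% of all measured genes. Lrp1b, Xylt1 and Kalrn were among the higher genes, and Tomm22, Nedd8 and Ndfip1 among the lower ones. In cells with 7 or 8 genes the medians were 60.9 kb for higher, 24.5 kb for lower and 34.7 kb for all measured genes. Over all chosen cells they were 36.3 kb, 41.3 kb and 32.1 kb in the same order. Nedd8, a ubiquitin-like modifier, stood at 87.1 CPM in the mutant and 192 CPM in the control cells with 7 or 8 genes and had a ratio of 0.301 (0.128 to 0.608) in the stricter set. Of 29 measured oxidative phosphorylation genes 10 were lower and 0 higher there, at a median log2 ratio of -0.54. Of 22 glycolysis, lactate and glycogen genes 3 (Aldoc, Pkm and Gbe1) were lower and 1 (Pfkp) higher. Of 15 lipoprotein and lipid-binding genes 5 (Lcat, Fabp5, Dbi, Mt1 and Mt2) were lower and 1 (Lrp1) higher. These 20 mutant cells had a median of 7622 UMIs and 5.55% mitochondrial UMIs, and the 101 control cells 9356 UMIs and 7.60%. Depth, mitochondrial share and gene span moved together here, and their part in the calls was not tested.

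The genes of the study's design were sparse in telencephalic-type astrocytes. Csf1r stood at 131 CPM (91.5 to 181) in the mutant and 120 CPM (103 to 138) in the control cells with 7 or 8 genes, against 1743 and 2235 CPM in mutant and control microglia. A single cell held 52.8% of the Csf1r UMIs in the mutant and 14.8% in the control library, and the 12 microglial markers met their criterion in 6 of 30 mutant and 30 of 135 control cells. Csf1, a ligand of the receptor, had 8 UMIs (29.0 CPM) in the mutant and 78 UMIs (50.9 CPM) in the control cells, a ratio of 0.570 (0.238 to 1.18). Il34, the other ligand, had 0 UMIs in the mutant and 1 in the control cells, and a count of 0 allows up to 10.9 CPM (3 UMIs) in the mutant cells. Mrc1 had 0 UMIs in the mutant and 35 in the control cells, with 80.0% of them in 1 control cell. The interval of the Csf1 ratio included 1, and a difference in Il34 was not detectable at this depth.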

How the data were processed

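Single cells were sequenced with 10x Chromium Next GEM 3′ v3.1 chemistry, per the labels' protocols. The values deposited by the authors are whole-number counts of UMIs for 26033 genes in each barcode, with no normalization, from Cell Ranger 7.1.0, per the file headers. GRCm38.p6 and mm10 are named as builds in the submitters' processing notes. Counting settings, and whether doublets or free RNA had been removed, were not given in the sources used here. Gene positions come from the GENCODE annotation of GRCm38, which matched 25637 gene identifiers.

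The cells and gene lists were chosen with earlier results of these data known, and the division by 7 or 8 astrocyte genes and the stricter set without any other class's markers were chosen after values were seen. UMIs were summed per library and set of cells and divided by their total (CPM). Ratios have exact conditional Poisson intervals and shares exact binomial (Clopper-Pearson) intervals at 95%, for counting error only. With 1 library per genotype no test was made. A gene counted as higher or lower at 50 UMIs or more over both libraries, a ratio of 1.5 or its inverse, and an interval without 1. For the regional contrasts this had to hold in both libraries. Mitochondrial, ribosomal, haemoglobin, X- and Y-linked genes and unnamed gene models were left out. Some other genes are not reported here. Genes under 10% of their CPM in another marker-defined class (of 20 or more cells) were counted apart. A class criterion asked for 4 or more of its markers (3 for erythroid and pituitary lists). Genes were named by the interval bound nearest to 1, among those at 20 CPM or more. Other named genes have the highest level or spread in these cells, differ most in their list, or belong to the rule, the marker lists or the study's design.

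Variance to mean ratios, and the shares of cells with a UMI where thinning is named, were computed on cells thinned to 2000 UMIs. Thinning left out 1 mutant chosen cell. Shares of chosen cells, of cells meeting a class criterion and of UMIs in single cells used all UMIs. Scrublet, run per library on all barcodes, called 2.52% of mutant and 2.62% of control barcodes, and these were kept. Python 3.11.15, numpy 2.4.6, scipy 1.17.1, pandas 2.3.3, scanpy 1.11.5 and matplotlib 3.10.9 were used. The ratio rule was checked on simulated data. Alternatives were TMM scaling, equal weight per cell, other limits on UMIs, mitochondrial share, margin and free RNA, thinning, and leaving out called doublets or the richest cell.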

Additional observations from a re-analysis of the deposited data

How the results depend on the processing

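The number of chosen cells depended on the limits. With a mitochondrial limit of 5% there were 22 mutant and 30 control cells (0.560% and 0.829% of kept barcodes in mutant and control). A margin of at least 3 UMIs left 39 mutant cells (0.620%) and 2.35% of control barcodes. At least 6 astrocyte genes left 38 mutant cells (0.604%) and 2.46% of control barcodes, and 7 or 8 genes left 30 mutant cells (0.477%) and 2.35% of control barcodes. The stricter set, chosen after the data were seen like that with 7 or 8 genes, held 20 mutant (0.318%) and 101 control cells (1.76%).

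Over all chosen cells, genes higher and lower in the mutant library numbered 457 and 549 with at least 200 UMIs, 346 and 393 with the 5% mitochondrial limit, and 180 and 272 after thinning to 2000 UMIs. They numbered 209 and 195 in cells with 7 or 8 genes and 199 and 215 in the stricter set. The count of higher genes was 875 with a margin of at least 3 UMIs and 702 with the free RNA limit at 50%. In cells with 7 or 8 genes, genes higher and lower numbered 483 and 763 with equal weight per cell, 36 and 65 with at least 200 UMIs, 87 and 66 with the 5% mitochondrial limit, 36 and 41 after thinning, and 126 and 126 with the free RNA limit at 50%. With at least 10 UMIs 356 were higher. Thinning and the 200 UMI limit leave fewer UMIs or fewer genes by construction, and equal weight per cell used a looser rule. The cause of the other differences was not tested.

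Between telencephalic-type and non-telencephalic cells, genes higher and lower in both libraries numbered 338 and 321 with at least 200 UMIs, 193 and 233 after thinning, and 253 and 257 in the stricter set. The count of higher genes was 380 with TMM scaling, 286 with the 5% mitochondrial limit and 374 in cells with 7 or 8 genes. Against Gria4-high cells 180 were higher and 224 lower in cells with 7 or 8 genes. Of the counts and shares recomputed under the alternatives, 49 stayed within 1.5 times the main count or within counting error and 51 did not. Of single-gene ratios and list medians, 760 stayed within the interval of the main value and 120 moved outside it.

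Ratios of single genes crossed 1 in 12 cases. Without the cell richest in the gene, the mutant to control ratio of Pomc was 2.001 over all chosen cells. In cells with 7 or 8 genes it was 0.710 for Plac9, 0.133 for Mal, 0.958 for Pdlim2, 0.663 for Cnp, and 0 for Opalin, Tspan2 and Mog. In the stricter set, with the richest cell not left out, the ratio was 0.970 for Rarres2, 0.504 for Cnp and 0 for Nudt4. Cnp was at 0.167 with the 5% mitochondrial limit in cells with 7 or 8 genes.

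No paired analysis was possible because there was 1 library per genotype, and no library could be left out. The 30 mutant cells with 7 or 8 genes held 275423 UMIs and the 135 control cells 1531079, so intervals are set mainly by the mutant cells. Neither animals nor captures were replicated, and genotype and library cannot be told apart.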

Other observations

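The 20 mutant and 101 control telencephalic-type cells of the stricter set also differed in a few astrocyte genes that were not described above. Gdf10, a BMP-family ligand, had a mutant to control ratio of 0.103 (0.00255 to 0.593) and Aldh7a1, an aldehyde dehydrogenase, of 0.0962 (0.0024 to 0.555). Each rests on 1 UMI in the mutant cells, against 61 UMIs of Gdf10 and 65 of Aldh7a1 in the control cells. Higher in the mutant library were Fgf12, an intracellular FGF homologous factor, with a ratio of 2.87 (2.01 to 4.05), and Sned1, a matrix protein, with a ratio of 3.38 (1.86 to 5.98). These values rest on 1 library per genotype and were not tested.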
